A study of Mus musculus with 9 samples.

Results

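The fibroblast growth factor (FGF) genes are described here in 3 kinds of cultured mouse adipose-derived stem cells (ASCs). A gene was a member when it was listed as protein-coding and its symbol named an FGF ligand (Fgf followed by a number), a receptor (Fgfr1 to Fgfr4), the receptor-like gene Fgfrl1, a Sprouty gene (Spry1 to Spry4) or a Spred gene (Spred1 to Spred3). This rule, which used no measured value, gave 34 members among 54532 listed genes, of which 22046 were protein-coding. They were 22 ligands, 4 receptors, Fgfrl1, 4 Sprouty genes and 3 Spred genes. The ligands are so called by symbol only, and include Fgf11 to Fgf14, whose products belong to the family by sequence but are not secreted.

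Bulk RNA sequencing was performed on ASCs that had been isolated from C57BL/6 mice, either from fat under the skin (Sub-ASC), from fat of the abdomen (Ab-ASC) or from perivascular fat (PVASC), with 3 libraries per group and 9 in all. The study asked how the transcriptomes of ASCs differ between these depots. No group was treated, and the cells of all groups grew in a serum-containing stem cell medium to which recombinant human leukemia inhibitory factor and recombinant human FGF protein had been added, so every level below was measured with FGF in the medium. The labels give neither the age or sex of the mice nor whether the 3 libraries of a group came from separate mice or cultures, so p-values measure only the spread between these libraries, which may be technical.

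Most FGFs are secreted proteins that bind receptor tyrosine kinases on the cell surface, together with heparan sulfate chains or, for the endocrine FGFs, Klotho proteins. The activated receptor passes its signal through adaptor proteins to RAS and the kinase ERK, and ERK signaling in turn induces inhibitors of the same route, among them Sprouty and Spred proteins. In adipose tissue, FGF ligands are known for their effects on the growth and differentiation of precursor cells, and FGF2 is a common supplement in the culture of mesenchymal stem cells.

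Between 20524173 and 29881036 reads per library were assigned to genes. At this depth the limit that a count of 0 allows, 3 reads, corresponded to 0.0917 to 0.161 CPM. CPM, the reads of a gene relative to its library's total, is given on the library totals scaled by TMM, a method that corrects for differences in library composition, and is used to compare one gene between groups. The spread of genes between libraries of a group (biological coefficient of variation) was 5.70% in Sub-ASCs and 3.85% in PVASCs. It was 12.4% in Ab-ASCs but 5.07% without Ab-ASC replicate 1, so this library stood apart from the other two, and the members that depend on it are given with and without it.

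All 9 markers of mesenchymal stem cells were detected in every group, although Ly6a, the gene of Sca1, fell from 2049 CPM in Sub-ASCs to 111 CPM in PVASCs and 21.8 CPM in Ab-ASCs. Of the 9, 4 were higher and 5 lower in PVASCs than in Sub-ASCs, 3 higher and 6 lower in Ab-ASCs than in Sub-ASCs, and 4 higher and 4 lower in PVASCs than in Ab-ASCs. Pdgfra fell from 2709 CPM in Sub-ASCs to 443 CPM in Ab-ASCs and 332 CPM in PVASCs, whereas Eng was at 108, 145 and 328 CPM in that order. Markers of other cells and states also moved with the groups. The summed level of 6 smooth muscle and pericyte markers was 66.0 to 71.3 CPM in Sub-ASCs, 4391 to 5451 CPM in Ab-ASCs and 2739 to 2886 CPM in PVASCs, most of it Acta2. All 6 genes were higher in PVASCs than in Sub-ASCs, 5 were higher and 1 lower in Ab-ASCs than in Sub-ASCs, and 2 were higher and 4 lower in PVASCs than in Ab-ASCs. The pericyte markers Rgs5, at 6.27, 0.752 and 22.6 CPM in Sub-ASCs, Ab-ASCs and PVASCs, and Cspg4, at 1.47, 31.9 and 72.6 CPM, were highest in PVASCs. For 7 proliferation markers the sums were 115 to 120.1 CPM, 703 to 790.2 CPM and 711 to 727 CPM in the same order of groups, and for 8 interferon response genes they were 1031 to 1039.8 CPM, 29.9 to 31.8 CPM and 43.9 to 44.2 CPM. Endothelial markers (6 genes) summed to 179 to 193 CPM, 63.8 to 65.7 CPM and 753 to 760.4 CPM. Of these 6, 5 were higher and 1 lower in PVASCs than in Sub-ASCs, the latter Tek, at 46.0, 10.1 and 14.8 CPM. All 6 were lower in Ab-ASCs than in Sub-ASCs and higher in PVASCs than in Ab-ASCs. Mesothelial markers (10 genes) summed to 3.17 to 3.26 CPM, 127 to 136 CPM and 51.8 to 53.4 CPM, with Upk1b and Lrrn4 at 0 reads in Sub-ASCs. Of these 10, 9 were higher and 0 lower than in Sub-ASCs in each other group. Between PVASCs and Ab-ASCs, 2 were higher and 8 lower in PVASCs. The 2 were Krt19, at 1.12, 4.39 and 14.7 CPM in the same order, and Gpm6a, at 0.363, 0.600 and 1.88 CPM. Krt8 was at 0.384, 18.8 and 0.266 CPM. Leukocyte and macrophage markers (6 genes) summed to 239 to 244 CPM, 302 to 395 CPM and 291 to 300.4 CPM in the same order, most of it Lyz2. Of these 6 genes, 2 were higher and 4 lower than in Sub-ASCs in both other groups, and Ptprc, the gene of CD45, was at 8.94, 1.41 and 2.81 CPM. Epithelial markers (4 genes) summed to 0.129 to 0.496 CPM in Sub-ASCs, 2.41 to 2.79 CPM in Ab-ASCs and 0.0339 to 0.0917 CPM in PVASCs, and the 1 tested, Cdh1, was higher in Ab-ASCs than in Sub-ASCs (log2 fold change 3.56) and lower in PVASCs than in both (-5.96 against Ab-ASCs). Schwann cell and neuron markers (6 genes) summed to 19.8 to 20.6 CPM in Sub-ASCs, 39.6 to 48.1 CPM in Ab-ASCs and 122 to 125 CPM in PVASCs, most of it Tubb3. All 5 tested genes were higher in PVASCs than in Ab-ASCs, and 4 were higher in PVASCs than in Sub-ASCs. In Ab-ASCs 1 was higher and 3 lower than in Sub-ASCs. Adipocyte markers (5 genes, with Lep at 0 reads throughout) summed to 142 to 155 CPM, 35.0 to 38.2 CPM and 45.6 to 48.3 CPM in the same order. The part of these cells and states in the results below was not tested, and in bulk samples fewer cells of a type and less RNA per cell cannot be told apart.

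A test was run on the 16526 genes that passed the filter on low counts. Among the members, 21 passed: 9 of the 22 ligands, all 4 receptors, Fgfrl1, all 4 Sprouty genes and all 3 Spred genes. The 13 that did not pass were all ligands. Fgf3, Fgf4, Fgf6, Fgf8 and Fgf20 had 0 reads in all 9 libraries, and Fgf15 had 1 read, in PVASC replicate 1. Fgf9, Fgf13, Fgf14, Fgf16, Fgf17, Fgf21 and Fgf22 had at most 14 reads in any library. Fgf9 was at 0.129, 0.197 and 0.229 CPM in Sub-ASCs, 0.483, 0.489 and 0.401 CPM in Ab-ASCs and 0.214, 0.203 and 0.254 CPM in PVASCs, so that every Ab-ASC library lay above the other 6. It passed the filter in some fits that left out 1 library, through Ab-ASC libraries, the only ones with at least 9 reads. Fgf9 was then called higher in Ab-ASCs than in Sub-ASCs in 7 fits and than in PVASCs in 4. Because it entered these fits through the group where it is high, the calls are no separate evidence of a difference. Of the others, Fgf14 and Fgf16 were at 0 reads in all Ab-ASC libraries, against 15 and 11 reads over the Sub-ASC libraries and 8 and 9 reads over the PVASC libraries. Fgf13, on the X chromosome, had 12 reads over the Sub-ASC libraries, 2 over the Ab-ASC libraries and 33 over the PVASC libraries. With no filter on low counts, Fgf14 and Fgf16 were called between Ab-ASCs and Sub-ASCs and Fgf13 between PVASCs and Ab-ASCs. The 36 reads of Fgf22 are uncertain, because Rnf126 overlaps it on the opposite strand with 14522 reads and the strand setting of the counting is not given in the sources used here.

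Levels of different genes were compared as FPKM, that is, reads divided by library total and by gene length as listed. In Sub-ASCs the highest members were Fgfr1 at 65.6 ± 0.455 FPKM (SD, n = 3) and Fgf7 at 62.6 ± 5.74 FPKM, whose libraries overlapped, followed by Fgf2 at 33.5 ± 0.881 FPKM and Spry2 at 31.7 ± 1.78 FPKM, which overlapped too. In Ab-ASCs the highest mean was that of Fgf2 at 58.3 ± 16.9 FPKM, but its libraries, at 39.5, 72.3 and 63.0 FPKM, overlapped those of Fgfr1 at 44.9, 43.5 and 43.3 FPKM, since Fgfr1 was the higher of the pair in replicate 1. In PVASCs Fgf7 at 59.0 ± 1.58 FPKM and Fgf2 at 54.4 ± 0.604 FPKM led without overlap, and Spred1 was next at 43.7 ± 1.17 FPKM. To set groups side by side, FPKM was also scaled by TMM and summed, without a test. Over the 22 ligands the scaled sum was 126 ± 6.88 in Sub-ASCs, 134 ± 22.9 in Ab-ASCs and 130 ± 2.19 in PVASCs. The Ab-ASC libraries, at 109, 153 and 141, spread around all others, with replicate 1 the lowest, and averaged 147 without it. Over the 4 receptors the scaled sum was 69.2 ± 0.498, 48.7 ± 2.07 and 31.7 ± 0.475 in the same order. Sprouty genes summed to 37.9 ± 1.94, 59.3 ± 1.63 and 48.8 ± 0.254, and Spred genes to 34.8 ± 0.581, 53.0 ± 3.41 and 65.4 ± 0.813.

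**Figure D1:**
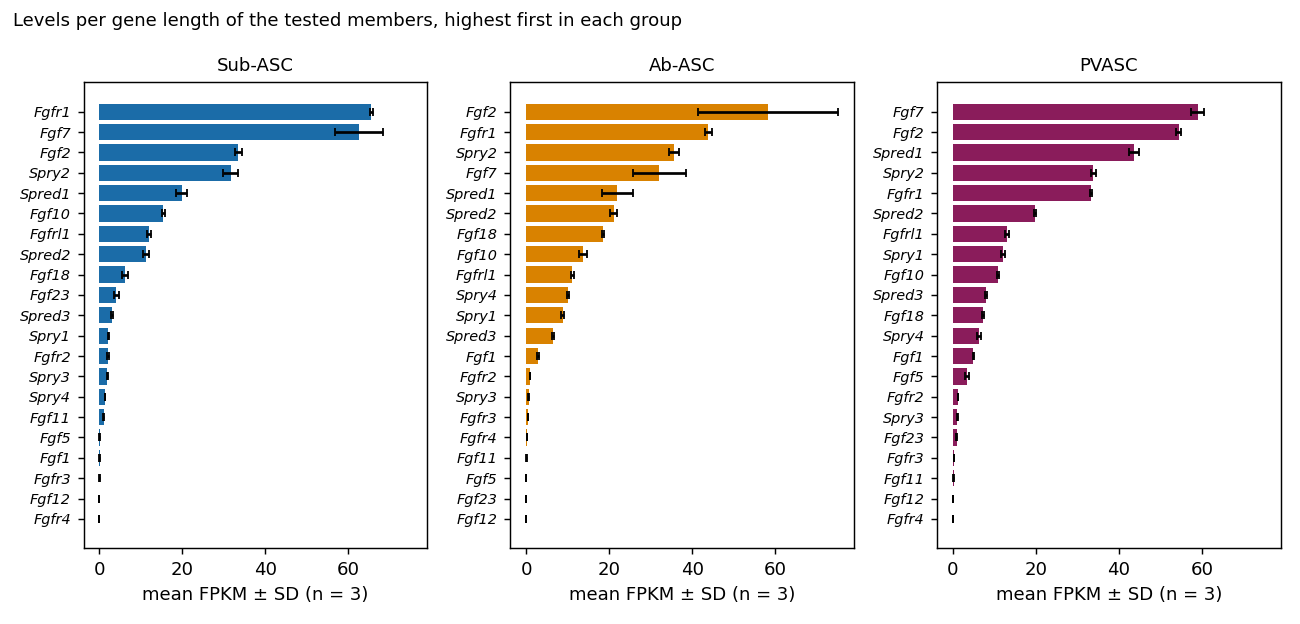
Mean FPKM ± SD over 3 libraries of the 21 tested members, as horizontal bars from 0, ordered from the highest in each group (Sub-ASC, Ab-ASC and PVASC from left to right). Fgfr1 and Fgf7 head the order in Sub-ASCs at 65.6 and 62.6 FPKM, Fgf2 in Ab-ASCs at 58.3 FPKM with the widest error bar, and Fgf7 in PVASCs at 59.0 FPKM.

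Fold changes below are on the log2 scale with their standard errors, and each adjusted p comes from the quasi-likelihood test of edgeR, adjusted by the Benjamini-Hochberg method over all 16526 genes. Among the ligands of the FGF1 subfamily, Fgf1 encodes a growth factor that can bind all FGF receptors. It was at 0.258, 0.511 and 0.419 CPM in the Sub-ASC libraries, which rest on 6, 13 and 11 reads. In Ab-ASCs it was at 15.5, 13.8 and 12.6 CPM, and in PVASCs at 21.2, 20.5 and 21.03 CPM. No 2 groups overlapped. The log2 fold change was 5.69 ± 0.16 between PVASCs and Sub-ASCs (adjusted p = 8.97e-12, a 51.7-fold difference), 5.10 ± 0.17 between Ab-ASCs and Sub-ASCs (adjusted p = 3.92e-11) and 0.59 ± 0.10 between PVASCs and Ab-ASCs (adjusted p = 0.000289). Arhgap26, which overlaps Fgf1 on the opposite strand, had 1634 reads over all libraries against 2872 for Fgf1, and reads of both cannot be told apart where they overlap.

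Fgf2 encodes basic FGF, a mitogen of many mesenchymal cells. Its level was 236, 235 and 226 CPM in Sub-ASCs, 296, 515 and 454 CPM in Ab-ASCs and 341, 339 and 334 CPM in PVASCs. The Sub-ASC libraries lay below all others, whereas the Ab-ASC libraries spread on both sides of the PVASC libraries, with Ab-ASC replicate 1 the lowest of its group. Fgf2 was higher in PVASCs than in Sub-ASCs by 0.54 ± 0.14 (adjusted p = 0.00518) and higher in Ab-ASCs than in Sub-ASCs by 0.86 ± 0.15 (adjusted p = 0.000166). Between PVASCs and Ab-ASCs the difference was -0.32 ± 0.14, with a 95% interval from -0.63 to -0.0049 and an adjusted p of 0.0772. Without Ab-ASC replicate 1 this difference was -0.52 with an adjusted p of 1.06e-08, and with all 9 libraries but no low-count filter it was -0.32 with an adjusted p of 1.91e-06, so the call depends on these choices. The antisense gene Fgf2os and Nudt6, which overlap Fgf2 (chromosome 3, 37348346 to 37410108, plus strand), had 1130 and 409 reads over all libraries against 76306 for Fgf2. Without the strand setting, reads of these genes cannot be told apart where they overlap.

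In the FGF4 subfamily, Fgf5 was the member detected above trace levels. It encodes a secreted FGF known as an inhibitor of hair growth. The gene lies on chromosome 5 (98254184 to 98277030, plus strand) and had 298, 205 and 235 reads in the PVASC libraries (9.11, 6.95 and 7.48 CPM), 4, 5 and 9 reads in the Sub-ASC libraries, and 4, 0 and 4 reads in the Ab-ASC libraries. All PVASC libraries lay far above the other 6, of which none exceeded 0.343 CPM. Fgf5 passed the low-count filter only through the PVASC libraries, so its adjusted p-values follow a selection on the group where it is high. Against Sub-ASCs the log2 fold change was 5.005 ± 0.30 (adjusted p = 1.18e-08) and against Ab-ASCs it was 5.91 ± 0.35 (adjusted p = 4.62e-08), or 5.29 without Ab-ASC replicate 2, the library at 0 reads (adjusted p = 4.1e-08). From the summed reads the PVASC to Ab-ASC ratio was 62.6, with an exact 95% interval from 31.6 to 146 that covers counting error only, as do all such intervals here. Between Ab-ASCs and Sub-ASCs, 8 against 18 reads gave a ratio of 0.524 with an interval from 0.197 to 1.27. The 250 bases before its start in RefSeq (GRCm38.p6, plus strand) are shown because Fgf5 was the ligand with the largest difference between PVASCs and Ab-ASCs. CG pairs are in capitals.
Fgf5 promoter, chr5:98253934-98254183: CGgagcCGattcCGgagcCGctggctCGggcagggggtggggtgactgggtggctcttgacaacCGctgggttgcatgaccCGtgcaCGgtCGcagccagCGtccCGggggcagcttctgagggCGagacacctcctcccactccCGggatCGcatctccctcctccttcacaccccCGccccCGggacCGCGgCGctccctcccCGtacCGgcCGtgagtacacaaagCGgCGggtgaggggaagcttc
It holds 24 CG pairs, and 88.0% of all 32851 RefSeq promoters of this length held fewer.

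Fgf7 and Fgf10, of the FGF7 subfamily, encode growth factors that mesenchymal cells release to act on epithelial cells through a splice form of FGFR2, and Fgf10 also takes part in the development of adipose tissue. Fgf7 was at 211, 224 and 188 CPM in Sub-ASCs, 88.9, 126 and 119 CPM in Ab-ASCs and 179, 171 and 176 CPM in PVASCs. The 3 Ab-ASC libraries were the lowest, and no groups overlapped. Fgf7 was lower in Ab-ASCs than in Sub-ASCs by -0.90 ± 0.11 (adjusted p = 9.13e-06) and higher in PVASCs than in Ab-ASCs by 0.66 ± 0.11 (adjusted p = 0.000293). The difference between PVASCs and Sub-ASCs was -0.24 ± 0.11 (95% interval -0.48 to -0.0094, adjusted p = 0.0598), which passed the threshold without Ab-ASC replicate 1 (-0.24, adjusted p = 0.000367), without Ab-ASC replicate 2 (-0.24, adjusted p = 0.0337) and without Sub-ASC replicate 3 (-0.31, adjusted p = 0.0347). With no library of these groups left out, it was also called without a low-count filter (-0.24, adjusted p = 0.00185) and in a fit of only PVASCs and Sub-ASCs (-0.24, adjusted p = 0.000522). Fgf10 was at 72.0, 74.1 and 71.6 CPM in Sub-ASCs, 65.4, 71.9 and 65.0 CPM in Ab-ASCs and 46.1, 46.3 and 45.0 CPM in PVASCs. The PVASC libraries were the lowest, by -0.66 ± 0.06 against Sub-ASCs (adjusted p = 4.32e-07) and by -0.56 ± 0.06 against Ab-ASCs (adjusted p = 6.64e-06). Ab-ASCs and Sub-ASCs overlapped, with a difference of -0.11 ± 0.06 (95% interval -0.23 to 0.02, adjusted p = 0.115) that was called without Ab-ASC replicate 2 (-0.15, adjusted p = 0.0364).

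Fgf18, a ligand of the FGF8 subfamily with roles in cartilage and bone, set Ab-ASCs apart. It was at 23.8, 23.2 and 23.6 CPM there, against 6.61, 7.74 and 8.39 CPM in Sub-ASCs and 8.01, 7.59 and 8.05 CPM in PVASCs. Ab-ASCs exceeded Sub-ASCs by 1.63 ± 0.09 (adjusted p = 6.4e-09), and PVASCs were below Ab-ASCs by -1.58 ± 0.09 (adjusted p = 3.11e-08). PVASCs and Sub-ASCs overlapped, with a difference of 0.05 ± 0.10 (95% interval -0.16 to 0.27, adjusted p = 0.637).

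The homologous factors Fgf11 to Fgf14, which stay inside the cell, are best known as partners of voltage-gated sodium channels. Fgf11 was at 3.56, 3.81 and 3.01 CPM in Sub-ASCs, 0.0537, 0.445 and 0.357 CPM in Ab-ASCs and 0.459, 0.271 and 0.509 CPM in PVASCs. The Sub-ASC libraries stood above the rest, by -3.04 ± 0.31 for PVASCs against Sub-ASCs (adjusted p = 2.11e-06) and -3.52 ± 0.36 for Ab-ASCs against Sub-ASCs (adjusted p = 1.96e-06). For PVASCs against Ab-ASCs the difference was 0.48 ± 0.48 (adjusted p = 0.424). Fgf12 rested on few reads: 20, 14 and 24 in PVASCs, against 2, 1 and 3 in Sub-ASCs and 1, 2 and 4 in Ab-ASCs. Its summed reads gave a PVASC to Sub-ASC ratio of 7.74 (exact 95% interval 3.35 to 21.9) and a PVASC to Ab-ASC ratio of 5.62 (2.56 to 14.6), with adjusted p = 0.000166 and 0.000894. Fgf12 passed the low-count filter only through the PVASC libraries, so these adjusted p-values follow a selection on the group where it is high.

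Of the endocrine FGFs, which need Klotho proteins as coreceptors, only Fgf23 was tested. Fgf23 encodes the hormone that lowers blood phosphate and is made mainly by bone cells. It was at 7.47, 8.69 and 6.79 CPM in Sub-ASCs and 1.59, 1.59 and 1.40 CPM in PVASCs, and the Ab-ASC libraries held 0, 4 and 2 of its reads. No 2 groups overlapped. PVASCs were below Sub-ASCs by -2.32 ± 0.18 (adjusted p = 1.56e-07) and above Ab-ASCs by 3.95 ± 0.42 (adjusted p = 8.88e-06). Sub-ASCs had 573 reads against 6 in Ab-ASCs, a ratio of 81.0 with an exact 95% interval from 37.0 to 222 (adjusted p = 2.62e-09). Without Ab-ASC replicate 2, which held 4 of those 6 reads, the log2 fold change of Ab-ASCs against Sub-ASCs moved from -6.27 to -7.15 (adjusted p = 5.96e-09) and that of PVASCs against Ab-ASCs from 3.95 to 4.84 (adjusted p = 1.35e-05). Its neighbour on chromosome 6, Fgf6, ends 44.7 kb before Fgf23 (127072902 to 127081408, plus strand) and had 0 reads in every library. The sequence before the start of Fgf23 in RefSeq (GRCm38.p6, plus strand) is shown beside that of Fgf5 because its fold change between Ab-ASCs and Sub-ASCs was the largest of any member. CG pairs are again in capitals.
Fgf23 promoter, chr6:127072652-127072901: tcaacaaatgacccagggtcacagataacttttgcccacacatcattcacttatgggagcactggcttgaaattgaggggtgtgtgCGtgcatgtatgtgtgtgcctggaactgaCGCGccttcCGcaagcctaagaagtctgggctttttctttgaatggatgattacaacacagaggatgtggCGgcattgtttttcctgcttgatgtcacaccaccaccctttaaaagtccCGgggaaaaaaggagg
It holds 6 CG pairs, the median over all promoters of this length.

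**Figure D2:**
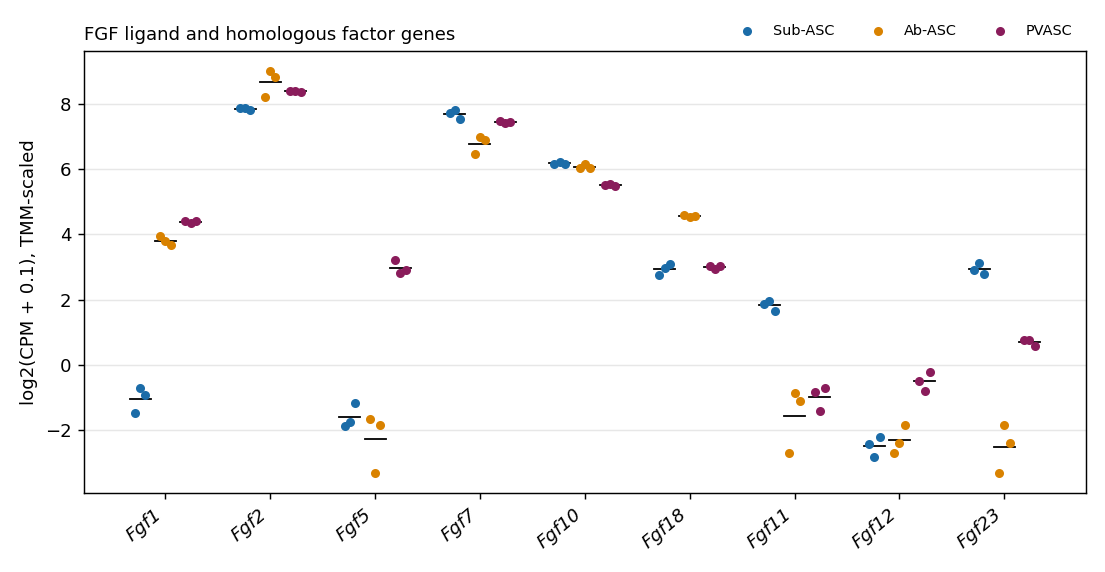
Level of the 9 tested ligand genes in each library (points, colored by group) on the scale log2(CPM + 0.1), with the mean of each group as a horizontal line. Fgf5 and Fgf12 are higher in the 3 PVASC libraries, Fgf18 in the 3 Ab-ASC libraries, and Fgf11 and Fgf23 in the 3 Sub-ASC libraries, while Fgf1 is near the floor in Sub-ASCs.

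Among the receptors, Fgfr1, the main FGF receptor of mesenchymal cells, accounted for 96.8% ± 0.213 of the summed FPKM of the 4 receptors in Sub-ASCs, 96.5% ± 0.262 in Ab-ASCs and 96.0% ± 0.162 in PVASCs (SD, n = 3). Its own level was 660.0, 657 and 669 CPM in Sub-ASCs, 488, 451 and 455 CPM in Ab-ASCs and 298, 306 and 299 CPM in PVASCs. The groups were in this order without overlap. Fgfr1 (chromosome 8, 25513654 to 25575718, plus strand) was 2.20 times lower in PVASCs than in Sub-ASCs (log2 fold change -1.14 ± 0.05, adjusted p = 3e-10). The difference between PVASCs and Ab-ASCs was -0.63 ± 0.05 (adjusted p = 3.42e-07) and that between Ab-ASCs and Sub-ASCs -0.51 ± 0.05 (adjusted p = 6.34e-07).

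Fgfr2, whose splice forms bind different ligands, was at 21.9, 23.5 and 20.5 CPM in Sub-ASCs, 10.4, 9.38 and 10.1 CPM in Ab-ASCs and 10.4, 11.4 and 11.4 CPM in PVASCs. Sub-ASCs were above both other groups, with -0.99 ± 0.08 for PVASCs (adjusted p = 3e-07) and -1.14 ± 0.09 for Ab-ASCs (adjusted p = 1.05e-07). PVASCs and Ab-ASCs differed by 0.16 ± 0.09 (95% interval -0.04 to 0.35, adjusted p = 0.153), and by 0.23 in a fit of only these groups, which called it (adjusted p = 0.0436). The listed span of Fgfr2 covers many other genes, some of them with more reads than its own 3310, so its counts are uncertain. Fgfr3 and Fgfr4 were minor receptors here, and both were higher in Ab-ASCs. Fgfr3, known as a brake on bone growth, was at 0.515, 0.275 and 0.458 CPM in Sub-ASCs, 3.38, 3.73 and 4.06 CPM in Ab-ASCs and 0.948, 1.22 and 1.05 CPM in PVASCs. It rose by 3.16 ± 0.24 in Ab-ASCs against Sub-ASCs (adjusted p = 1.12e-07) and by 1.36 ± 0.27 in PVASCs against Sub-ASCs (adjusted p = 0.000712), and was -1.80 ± 0.20 in PVASCs against Ab-ASCs (adjusted p = 1.08e-05). Fgfr4, the receptor that mediates FGF signals in liver, had 1 read over the Sub-ASC libraries, 48 over the Ab-ASC libraries and 18 over the PVASC libraries. It passed the low-count filter only through the Ab-ASC libraries, so its adjusted p-values follow a selection on the group where it is high. Its reads gave an Ab-ASC to Sub-ASC ratio of 56.6 with an exact 95% interval from 9.69 to 2282 (adjusted p = 9.23e-06), so the size of this difference is not fixed by these data. The PVASC to Sub-ASC ratio was 14.4 with an interval from 2.27 to 600.2 (adjusted p = 0.00252), and the PVASC to Ab-ASC ratio was 0.254 with an interval from 0.139 to 0.446 (adjusted p = 0.00107). Without Sub-ASC replicate 1, which held that 1 read, Sub-ASCs were at 0 reads, and the differences of Ab-ASCs and PVASCs from them were still called (adjusted p = 5.05e-05 and 0.00264).

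Fgfrl1 encodes a receptor-like protein that lacks the kinase domain and can hold FGF ligands. It was the only tested member for which no comparison passed the threshold. Its level was 34.9, 34.3 and 32.8 CPM in Sub-ASCs, 35.3, 32.4 and 32.0 CPM in Ab-ASCs and 31.9, 34.5 and 32.8 CPM in PVASCs, and all groups overlapped. The difference between PVASCs and Sub-ASCs was -0.04 (95% interval -0.18 to 0.10, adjusted p = 0.592).

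**Figure D3:**
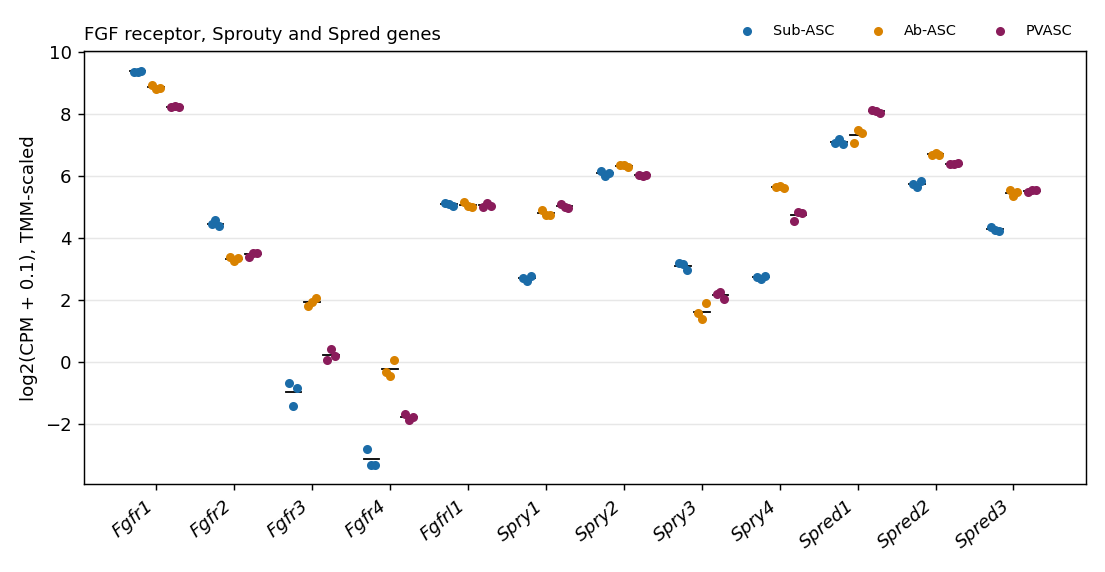
Level of the 4 receptors, Fgfrl1, the 4 Sprouty genes and the 3 Spred genes in each library (points, colored by group) on the scale log2(CPM + 0.1), with the mean of each group as a horizontal line. Fgfr1 falls from Sub-ASCs to Ab-ASCs to PVASCs, Spry1 and Spry4 are lower in Sub-ASCs than in the other groups, and the 9 points of Fgfrl1 overlap.

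Sprouty proteins are inhibitors of receptor signaling to RAS and ERK, and Spry1, Spry2 and Spry4 are themselves induced by it. Spry1 and Spry4 differed most between the groups. Spry1 (chromosome 3, 37639947 to 37644598, plus strand, about 230 kb beyond Fgf2) was at 6.40, 6.05 and 6.67 CPM in Sub-ASCs, 29.5, 26.8 and 26.4 CPM in Ab-ASCs and 33.7, 32.1 and 31.2 CPM in PVASCs. Sub-ASCs were the lowest and no groups overlapped. PVASCs exceeded Sub-ASCs by 2.34 ± 0.08 (adjusted p = 4.39e-11) and Ab-ASCs exceeded Sub-ASCs by 2.11 ± 0.08 (adjusted p = 1.4e-10). The difference between PVASCs and Ab-ASCs, 0.23 ± 0.07 (adjusted p = 0.0135), was not called without Ab-ASC replicate 3 (0.20, adjusted p = 0.0642) or without PVASC replicate 1 (0.20, adjusted p = 0.069). Below is the upstream sequence of Spry1 from RefSeq (GRCm38.p6, plus strand), shown because Spry1 had the largest fold change of the Sprouty and Spred genes between PVASCs and Sub-ASCs. CG pairs are in capitals.
Spry1 promoter, chr3:37639697-37639946: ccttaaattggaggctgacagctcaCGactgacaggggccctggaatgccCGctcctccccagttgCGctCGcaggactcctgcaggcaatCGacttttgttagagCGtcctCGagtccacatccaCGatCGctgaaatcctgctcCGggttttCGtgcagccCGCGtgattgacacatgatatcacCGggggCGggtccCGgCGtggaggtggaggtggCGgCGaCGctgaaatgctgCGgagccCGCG
It holds 23 CG pairs, and 86.7% of promoters held fewer.

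Spry4 was at 6.53, 6.33 and 6.67 CPM in Sub-ASCs, 50.1, 50.5 and 48.6 CPM in Ab-ASCs and 23.4, 28.1 and 27.5 CPM in PVASCs. Ab-ASCs were the highest, by 2.93 ± 0.09 against Sub-ASCs (adjusted p = 1.13e-11), and PVASCs lay between, at 2.02 ± 0.09 against Sub-ASCs (adjusted p = 4e-10) and -0.92 ± 0.07 against Ab-ASCs (adjusted p = 7.05e-07). Spry4 and Fgf1 are neighbours among the members on chromosome 18. No other protein-coding gene lies wholly between them, but genes that reach into the gap were not counted, and Arhgap26 overlaps Fgf1. Spry2, the Sprouty gene with the highest FPKM in every group, varied little. It was at 71.1, 63.5 and 68.0 CPM in Sub-ASCs, 81.1, 81.3 and 77.1 CPM in Ab-ASCs and 65.5, 63.6 and 64.7 CPM in PVASCs. The Ab-ASC libraries lay above the others, by 0.24 ± 0.06 over Sub-ASCs (adjusted p = 0.0023) and with -0.30 ± 0.06 for PVASCs against Ab-ASCs (adjusted p = 0.000777), whereas PVASCs and Sub-ASCs overlapped with a difference of -0.06 ± 0.06 (95% interval -0.19 to 0.06, adjusted p = 0.342). Spry3, listed on the unplaced scaffold GL456233.1, was the only Sprouty gene called lower in PVASCs and in Ab-ASCs than in Sub-ASCs. It was at 9.02, 8.80 and 7.74 CPM in Sub-ASCs, 2.90, 2.49 and 3.61 CPM in Ab-ASCs and 4.46, 4.64 and 4.01 CPM in PVASCs, and no groups overlapped. PVASCs were below Sub-ASCs by -0.96 ± 0.13 (adjusted p = 2.45e-05) and above Ab-ASCs by 0.54 ± 0.15 (adjusted p = 0.00888), and Ab-ASCs were below Sub-ASCs by -1.50 ± 0.14 (adjusted p = 9.75e-07).

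Spred proteins, which share a domain with the Sproutys, hold back the activation of RAF by recruiting the RAS inhibitor neurofibromin to the membrane. Spred1 was at 134, 147 and 131 CPM in Sub-ASCs, 133, 178 and 167 CPM in Ab-ASCs and 277, 274 and 263 CPM in PVASCs. All PVASC libraries were above the other 6, by 0.98 ± 0.09 against Sub-ASCs (adjusted p = 9.01e-07) and 0.77 ± 0.09 against Ab-ASCs (adjusted p = 2.23e-05). Ab-ASCs and Sub-ASCs overlapped, with a difference of 0.21 ± 0.09 (95% interval 0.01 to 0.41, adjusted p = 0.0518) that was called without Ab-ASC replicate 1 (0.33, adjusted p = 9.45e-06) and without Sub-ASC replicate 2 (0.27, adjusted p = 0.0363), as well as without a low-count filter (0.22, adjusted p = 0.00275) and with a replicate block (0.21, adjusted p = 0.0432). Spred2 was at 52.8, 49.5 and 56.5 CPM in Sub-ASCs, 103, 107 and 103 CPM in Ab-ASCs and 83.2, 82.5 and 84.3 CPM in PVASCs. The groups did not overlap, at 0.65 ± 0.06 for PVASCs against Sub-ASCs (adjusted p = 5.67e-07), 0.98 ± 0.06 for Ab-ASCs against Sub-ASCs (adjusted p = 1.13e-08) and -0.32 ± 0.06 for PVASCs against Ab-ASCs (adjusted p = 0.000498). Spred3 was at 20.4, 19.1 and 18.7 CPM in Sub-ASCs, 46.1, 40.3 and 44.0 CPM in Ab-ASCs and 44.4, 46.7 and 46.5 CPM in PVASCs. Sub-ASCs were the lowest, by 1.24 ± 0.07 for PVASCs (adjusted p = 5.1e-09) and 1.16 ± 0.07 for Ab-ASCs (adjusted p = 1.05e-08), while PVASCs and Ab-ASCs overlapped (0.08 ± 0.07, 95% interval -0.07 to 0.22, adjusted p = 0.329). Ggn, on the opposite strand, overlaps Spred3 and had 843 reads against 8496.

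Across the 21 tested members, 17 differed between PVASCs and Sub-ASCs, against 70.4% of all genes tested. Of these, 11 were higher in PVASCs (34.7% of all genes) and 6 lower (35.7%), and 11 changed by at least 1 on the log2 scale (32.2%). The median log2 fold change was 0.54 over the members and -0.01 over all genes. Between PVASCs and Ab-ASCs 16 members differed (56.9% of all genes), 8 of them higher in PVASCs (24.7%) and 8 lower (32.1%), with 6 past a log2 change of 1 (15.4%) and medians of 0.08 and -0.06. Between Ab-ASCs and Sub-ASCs 16 members differed (75.3% of all genes), 10 higher in Ab-ASCs (37.0%) and 6 lower (38.3%), with 11 past a log2 change of 1 (37.8%) and medians of 0.24 and -0.03. A test of any difference among the groups called 20 of the 21, against 84.6% of all genes. Most genes differed between these cells, so a call alone says little about a member, and the 3 comparisons share libraries and are not independent.

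**Figure D4:**
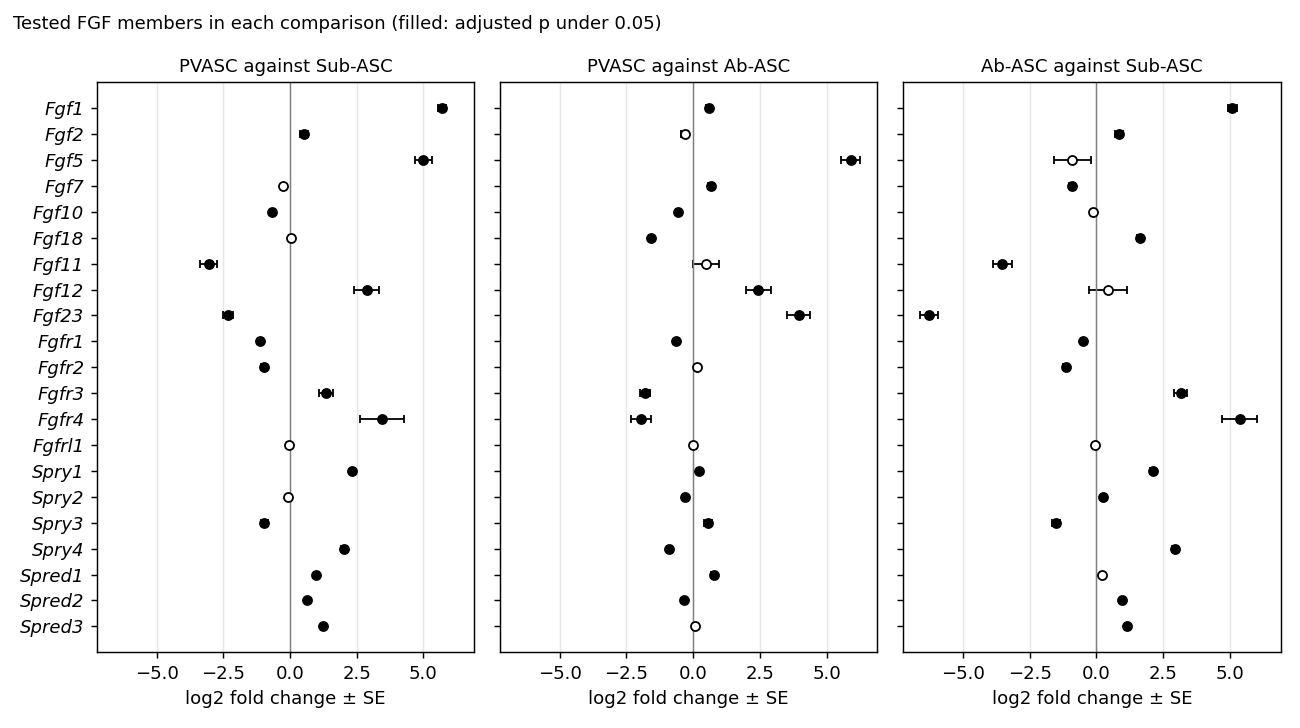
Log2 fold change ± SE of the 21 tested members in each of the 3 comparisons, with filled circles where the adjusted p was under 0.05 and open circles elsewhere. The widest changes are those of Fgf1 and Fgf5 against Sub-ASCs (5.69 and 5.005) in the left panel, Fgf5 in the middle panel and Fgf23 in the right panel, and Fgfrl1 is open in all panels.

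Other genes of the pathway were examined as 4 fixed lists, described by counts and medians to be read beside those of all genes above. The ERK target and feedback genes numbered 15, and all were tested. In PVASCs against Sub-ASCs 12 were higher and 2 lower, and in Ab-ASCs against Sub-ASCs 13 were higher and 1 lower, with median log2 fold changes of 0.80 and 1.02. In PVASCs against Ab-ASCs 2 were higher and 11 lower, with a median of -0.41. Etv4, an ETS transcription factor gene, was at 1.52 ± 0.292 CPM in Sub-ASCs, 50.8 ± 4.30 CPM in Ab-ASCs and 41.9 ± 0.822 CPM in PVASCs (log2 fold changes against Sub-ASCs 5.07 in Ab-ASCs and 4.79 in PVASCs, adjusted p = 1.34e-12 and 2.36e-12). Dusp5 and Dusp4 encode phosphatases that inactivate ERK in the nucleus. Dusp5 was at 3.49 ± 0.0935, 112 ± 3.77 and 68.0 ± 1.44 CPM in Sub-ASCs, Ab-ASCs and PVASCs, and Dusp4 at 8.66 ± 1.23, 226 ± 5.49 and 171 ± 3.27 CPM. Ccnd1, the gene of cyclin D1, was at 32.0 ± 0.929, 189 ± 7.38 and 525 ± 5.57 CPM, and was 1 of the 2 genes of the list that were higher in PVASCs than in Ab-ASCs. The other, Etv1, another ETS factor gene named here after its values were seen, was at 3.32 ± 0.258, 3.89 ± 0.533 and 19.3 ± 1.7999 CPM. Proliferation markers were higher in PVASCs and in Ab-ASCs than in Sub-ASCs for 7 of 7 genes, whereas between PVASCs and Ab-ASCs, where Ccnd1 was higher in PVASCs by 1.47, 2 of the 7 were higher and 4 lower in PVASCs, with a median of -0.35. Their part in the level of Ccnd1 was not tested. Il17rd, which encodes an inhibitor of FGF signaling and was picked after its values were seen because it was lower in Ab-ASCs than in Sub-ASCs, was at 24.2 ± 1.06, 9.58 ± 1.19 and 7.64 ± 1.28 CPM.

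**Figure D5:**
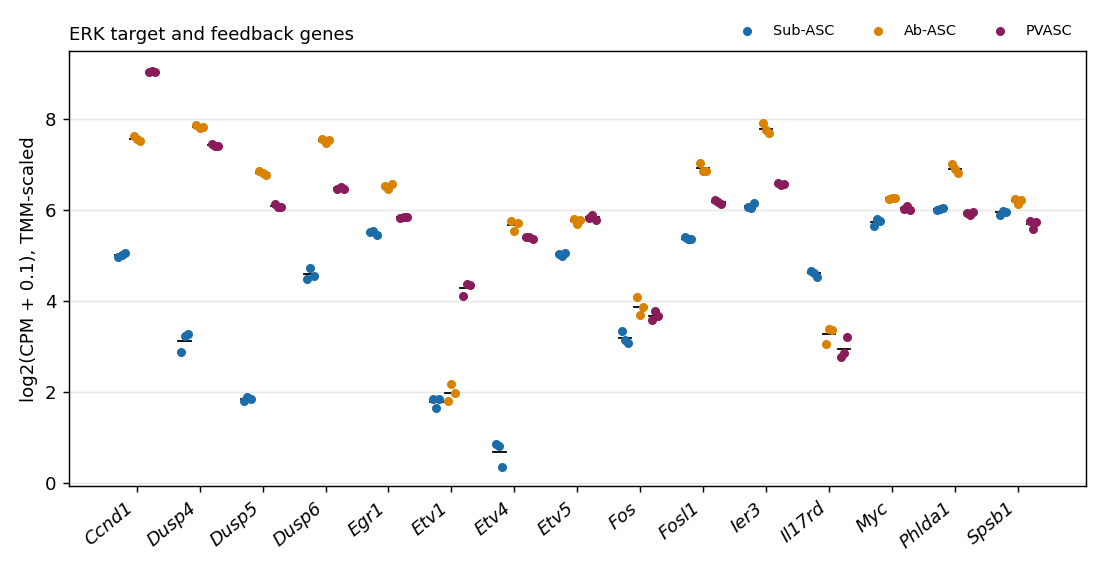
Level of the 15 ERK target and feedback genes in each library (points, colored by group) on the scale log2(CPM + 0.1), with the mean of each group as a horizontal line. Dusp4, Dusp5 and Etv4 are the genes with the largest gap between the Sub-ASC libraries and the others, and Il17rd is the gene whose Sub-ASC libraries lie above both other groups.

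FGF coreceptors and adaptors numbered 18 genes, of which 15 were tested. PVASCs against Sub-ASCs gave 3 higher and 8 lower, PVASCs against Ab-ASCs 6 higher and 5 lower, and Ab-ASCs against Sub-ASCs 5 higher and 10 lower, with median log2 fold changes of -0.26, -0.01 and -0.26. Flrt2, whose membrane protein can bind FGF receptors, was at 291 ± 23.4, 82.3 ± 23.4 and 123 ± 3.61 CPM in Sub-ASCs, Ab-ASCs and PVASCs. Frs2, the docking protein that links receptors to GRB2, was at 67.5 ± 1.16, 123 ± 9.56 and 91.8 ± 3.16 CPM. Gab1, another docking protein gene, was at 28.7 ± 1.20, 15.3 ± 1.13 and 17.8 ± 0.918 CPM, and Sos1, which loads RAS with GTP, at 49.9 ± 6.02, 30.2 ± 2.22 and 38.0 ± 1.33 CPM. The 3 genes that could not be tested were Kl, Klb and Fgfbp1, among them both Klotho coreceptors of the endocrine FGFs, and the mean of each was at most 0.128 CPM in any group.

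In the RAS and ERK cascade, 13 of 14 genes were tested. PVASCs against Sub-ASCs gave 6 higher and 3 lower, PVASCs against Ab-ASCs 4 higher and 6 lower, and Ab-ASCs against Sub-ASCs 7 higher and 3 lower, with medians of 0.12, -0.07 and 0.27. Ksr1, a scaffold of the RAF, MEK and ERK kinases, was at 152 ± 1.74 CPM in Sub-ASCs, 35.3 ± 0.555 CPM in Ab-ASCs and 27.8 ± 1.73 CPM in PVASCs (log2 fold change of PVASCs against Sub-ASCs -2.45 ± 0.06, adjusted p = 2.11e-12). Hras, which encodes a RAS protein, was at 30.7 ± 0.257, 78.2 ± 11.6 and 64.0 ± 1.73 CPM in Sub-ASCs, Ab-ASCs and PVASCs and was lower in Sub-ASCs than in both other groups, as was the MEK gene Map2k2 (98.1 ± 9.13, 176 ± 9.75 and 132 ± 5.32 CPM).

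RefSeq promoters were available for 25 members, with 32 promoters in all. No entry was used for Fgf1, Fgf8, Fgf15, Fgf16, Fgf17, Fgf20, Fgfr1, Spry3 and Spry4. The 250 bases before each start were searched on both strands for 3 motifs that do not overlap one another in sequence. The ETS motif CCGGAAG, bound by factors such as Etv4, was found in 1 of the 32 promoters, that of Fgfrl1, against 6.91% of all promoters. The AP-1 motif TGANTCA was found in 2, of Fgf12 and Fgf13, against 6.75%. The interferon response half-site GAAANNGAA was found in 0 of 32, against 7.13%. These matches describe letters in a short window and nothing about binding.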

How the data were processed

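Messenger RNA of cultured ASCs (Sub-ASC, Ab-ASC and PVASC, 3 libraries each, grouped by the tissue named in the labels) had been sequenced by the authors, who deposited raw read counts per gene with gene lengths and positions. Tools in the submitters' processing notes are CASAVA 1.8, Bowtie 0.12.2 and featureCounts 1.5.0-p3, with the builds mm8 and mm10, and the role of each, the strand setting and the annotation release are not given in the sources used here. Of the 34 members, 32 had the same position as in GENCODE M21 (GRCm38).

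Counts were filtered with filterByExpr, scaled by TMM and tested in edgeR 4.0.16 (R 4.3.3) by the quasi-likelihood test, with all 9 libraries in 1 fit and no covariates, and p-values were adjusted by the Benjamini-Hochberg method (threshold 0.05). FPKM was computed from counts, library totals and listed lengths, and for sums across groups from TMM-scaled totals. Exact 95% intervals of ratios treat reads as independent. The procedure was tested on simulated data. No pair of libraries had identical counts (0 pairs). Members, lists and tests were chosen with earlier results of these data known. The named genes were all members and, from each list, the genes called in all 3 comparisons or with a log2 fold change of at least 2 in size, up to 4 by size, with other names identified as such. One gene that this rule names is not reported here. Alternatives were DESeq2 1.42.0, RLE size factors, other count filters, a replicate block, fits of only the groups compared, a fold change limit, and leaving out each library.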

Additional observations from a re-analysis of the deposited data

How the results depend on the processing

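The 63 fold changes of members were recomputed under 15 settings, giving 936 values. In 914 the direction and the call were as reported, in 13 a difference became called, in 2 a call was lost (Spry1, PVASCs against Ab-ASCs), and in 7 the sign turned, each in a difference that was not called. The last were Fgfrl1 between PVASCs and Ab-ASCs, at 0.0165 with DESeq2, 0.0161 with RLE size factors and 0.0704 with only the groups compared. With 1 library left out, the same value ranged from -0.0376 to 0.0360, that of Fgf18 (PVASCs against Sub-ASCs) from -0.0356 without Sub-ASC replicate 1 to 0.131, and that of Fgf12 (Ab-ASCs against Sub-ASCs) from -0.122 without Ab-ASC replicate 3 to 0.784. The cause was not tested. A limit of 1 on the log2 fold change left 11 members and 5328 of all genes for PVASCs against Sub-ASCs, 6 and 2551 for PVASCs against Ab-ASCs, and 11 and 6241 for Ab-ASCs against Sub-ASCs. The 2551 split into 1673 higher and 878 lower, against 4088 and 5308 without that limit. By reads in place of FPKM, the Fgfr1 share in Ab-ASCs was 97.0%. With a replicate block, 17, 16 and 17 members were called in these comparisons, in this order, and 11458, 9183 and 12302 of all genes, and the block added Spred1 between Ab-ASCs and Sub-ASCs (0.21, adjusted p = 0.0432) and changed no other call of a member. Deviations of same-numbered libraries correlated between -0.112 and 0.195, so the numbers were not taken to pair the libraries. The counts of changed calls above cover the 21 tested members, and the calls that Fgf9, Fgf13, Fgf14 and Fgf16 gained under other settings are given in the report. Fgf12, Fgfr4 and the 13 untested ligands rest on few reads. A mean of at least 10 reads left Fgf12 and Fgfr4 untested, and with only the groups compared Fgfr4 was not tested between PVASCs and Sub-ASCs.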

Other observations

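The heparan sulfate proteoglycans and the enzymes that build and trim their chains, which FGF ligands need to bind receptors, were examined as a list of 27 genes, of which 24 were tested. In PVASCs against Sub-ASCs 12 were higher and 10 lower, in PVASCs against Ab-ASCs 6 were higher and 11 lower, and in Ab-ASCs against Sub-ASCs 12 were higher and 9 lower, with median log2 fold changes of 0.18, -0.16 and 0.18. The widest change was in Hs6st2, a sulfotransferase gene that adds sulfate at the 6-O position, with 3.90 ± 0.602 CPM in Sub-ASCs, 115 ± 21.6 CPM in Ab-ASCs and 132 ± 2.96 CPM in PVASCs (SD, n = 3). Hs6st1, of the same enzyme family, was at 29.998 ± 1.20, 86.2 ± 2.60 and 66.0 ± 1.35 CPM. Ndst3, which acts earlier in chain sulfation, was at 1.10 ± 0.0759, 1.76 ± 0.689 and 5.77 ± 0.547 CPM, and the syndecan gene Sdc1 was at 161 ± 7.46, 443 ± 37.1 and 304 ± 5.11 CPM.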
